A study of Mus musculus with 12 samples.

Results

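Cardiac fibroblast identity genes were followed through RNA-seq libraries of adult mouse cardiomyocytes. The members were 10 genes, Pdgfra, Dcn, Lum, Tcf21, Dpt, Gsn, Meox1, Fap, Pi16 and Mfap5, chosen by symbol from the 21493 genes of the tables. All 10 were found in all 12 libraries, and all 10 were among the 13158 genes that passed a filter on low counts and were tested.

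The study asked how the loss of desmin, the muscle-specific intermediate filament protein, alters gene expression in heart muscle cells at rest and under exercise stress. The cells came from the hearts of 3-month-old mice that carried intact desmin alleles (Des+/+) or lacked the gene in every cell (Des-/-), and that either exercised by swimming (swim) or rested (non-swim). There were 3 libraries of poly-A RNA in each of the 4 groups. By the methods of the study, cells of several mice went into a library. Hearts of every group were dissociated with trypsin and collagenase. The labels give no duration for the swimming.

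Fibroblasts are the main matrix-producing cells of the heart, and descend largely from the epicardium. At rest they are recognised by the receptor Pdgfra, the transcription factor Tcf21 and secreted matrix proteins such as decorin and lumican. After injury or overload they divide and turn to collagen production, and a part of them becomes contractile myofibroblasts. Cardiomyocyte preparations made by enzymatic dissociation can carry along fibroblasts and other cells of the heart.

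Total reads in genes ranged from 8935126 to 12072443 in Des+/+ non-swim, 7425291 to 9440967 in Des+/+ swim, 8058801 to 11206142 in Des-/- non-swim and 4320819 to 6521963 in Des-/- swim libraries. The desmin gene itself (Des) stood between 973 and 3647 CPM (counts scaled to the size of each library) in Des+/+ and between 50.3 and 101 CPM in Des-/- libraries. The members were counted well above the floor of 3 counts in every library, from 65 reads for the lowest value of Fap to 71764 for the highest value of Gsn. The first principal component, with 48.9% of the variance, parted the genotypes, with scores of -54.2 to -30.0 in Des+/+ libraries. Replicates 1 and 2 scored 40.9 and 27.2 in Des-/- non-swim and 4.40 and 7.40 in Des-/- swim. Replicate 3 of Des-/- non-swim (score 102) and of Des-/- swim (score 59.0) scored highest, each well above the rest of its group. A fit without these 2 libraries, added after the data were seen, is given beside the member results whose call it changed. It is also given beside most of the other gene lists without swimming, and beside some after swimming. All 12 cardiomyocyte markers used below were detected in every group, but detection of abundant RNAs does not check the make-up of a library. Their summed level ran from 6925 CPM (Des-/- non-swim replicate 3) to 107247 CPM (Des+/+ non-swim replicate 2). In the former library the 10 members summed to 7751 CPM.

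Of the 10 members, 5 (Pdgfra, Tcf21, Dpt, Gsn and Pi16) had an entry in the RefSeq promoter table (GRCm38.p6). The stretches before the start sites of 3 members that rose together without desmin, and of Gsn, whose difference did not pass the test, are shown so that their letters can be set side by side. Each holds up to 250 bases before the start, leaving out annotated exon sequence. Capitals mark matches to 6 motifs searched on both strands. One was the E-box CAGCTG, of the kind that bHLH factors such as Tcf21 bind. The other sequences searched were the motif of AP-1 factors, which is written TGANTCA, and the motif of TEAD factors, which is written GGAATG. The promoter elements searched were the TATA box with the letters TATAAA, the GC box with the letters GGGCGG, and the CArG box of serum response factor.
Pdgfra, chr5:75152001-75152250, plus strand: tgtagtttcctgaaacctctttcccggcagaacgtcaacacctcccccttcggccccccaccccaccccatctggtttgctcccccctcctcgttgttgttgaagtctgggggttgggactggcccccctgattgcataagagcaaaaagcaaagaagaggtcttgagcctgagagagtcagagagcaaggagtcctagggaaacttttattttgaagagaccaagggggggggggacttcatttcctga
Tcf21, chr10:22820175-22820393, minus strand: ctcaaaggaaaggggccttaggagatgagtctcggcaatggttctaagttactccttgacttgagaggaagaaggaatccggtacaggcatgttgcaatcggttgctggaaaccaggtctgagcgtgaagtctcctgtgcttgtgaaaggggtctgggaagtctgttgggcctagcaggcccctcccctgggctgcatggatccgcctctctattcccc
Dpt, chr1:164796413-164796643, plus strand: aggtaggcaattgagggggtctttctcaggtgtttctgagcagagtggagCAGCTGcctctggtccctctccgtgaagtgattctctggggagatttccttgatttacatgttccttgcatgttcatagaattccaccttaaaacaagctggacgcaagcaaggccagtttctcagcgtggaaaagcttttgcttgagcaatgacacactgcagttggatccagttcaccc
Gsn (first start), chr2:35256109-35256358, plus strand: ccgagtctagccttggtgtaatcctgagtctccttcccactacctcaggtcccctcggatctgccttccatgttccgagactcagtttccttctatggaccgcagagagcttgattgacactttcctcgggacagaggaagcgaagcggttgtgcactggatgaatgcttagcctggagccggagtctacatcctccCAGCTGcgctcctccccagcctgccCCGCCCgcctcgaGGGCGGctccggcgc
The Pdgfra and Tcf21 stretches held none of the 6 motifs. The Dpt stretch held CAGCTG at position -200 from the start, and the Gsn stretch held CAGCTG at position -53 and GGGCGG at positions -28 and -15. Over 32851 mouse promoters of the same length, 13% held CAGCTG and 32.7% held GGGCGG. The shares for the other motifs were 6.75% for TGANTCA, 12.6% for GGAATG, 12.4% for TATAAA and 1.47% for the CArG box. Such matches describe the letters and do not show that a factor binds there.

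Without swimming, 9 of the 10 fibroblast identity genes were higher in Des-/- than in Des+/+ cells, by 1.81-fold for Pdgfra up to 7.91-fold for Mfap5. Gsn alone did not pass the test. Of all genes tested, 14% were called higher and 18% lower in this comparison, 32% in all, so the share among the members stood above the background. DESeq2 called 32.7% of all genes, and 43.7% had an unadjusted p under 0.05. The members were chosen with earlier results of these data known, so such shares describe them and are no test. The median log2 change was 1.24 over the members and 0.04 over all genes. The same 9 genes had Des-/- libraries that all lay above all Des+/+ libraries, which held for 23% of all genes (and 24.9% had Des-/- libraries all below). A call here is an edgeR quasi-likelihood test at an adjusted p under 0.05, with p-values adjusted over all genes. In bulk libraries, more fibroblasts among the cells and more of these RNAs per fibroblast cannot be told apart.

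**Figure D1:**
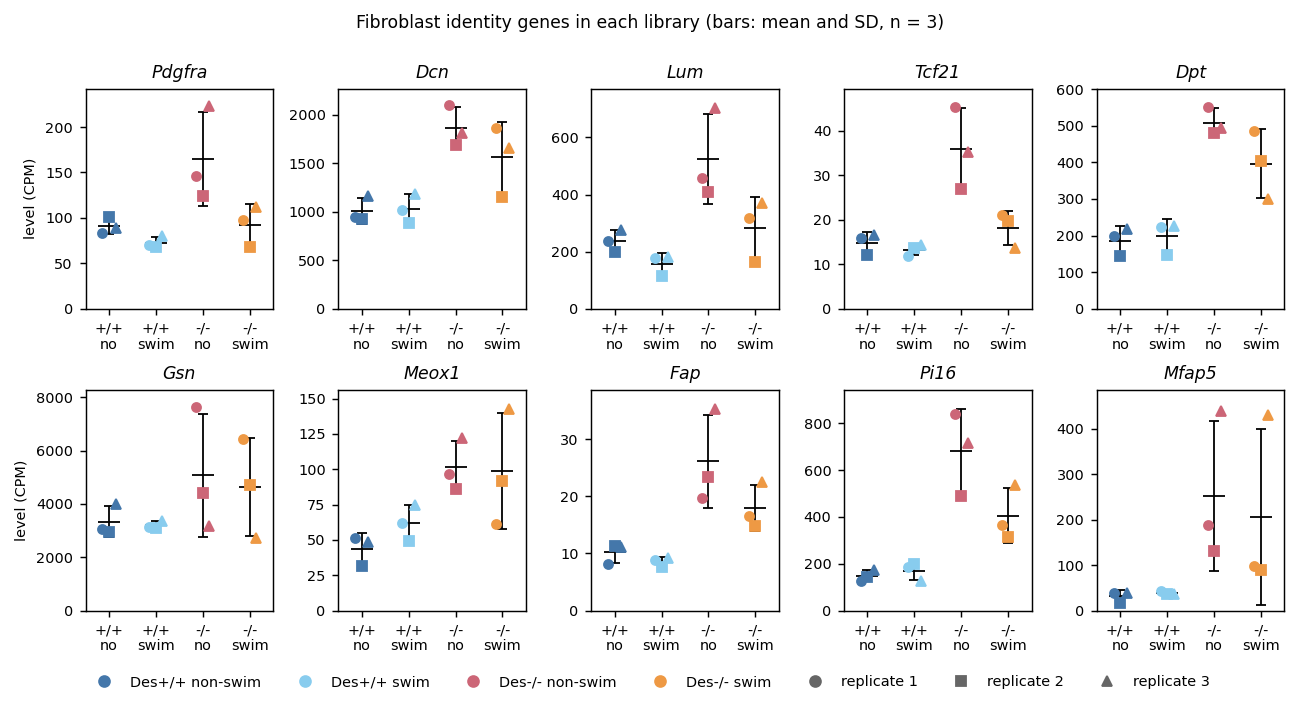
Level of each gene in CPM (y axis, from 0) in the 12 libraries, by group (x axis). Points are libraries, with a marker shape for each replicate number, and bars are the mean and SD of 3 libraries. For every gene but Gsn the 3 Des-/- non-swim libraries lie above the 3 Des+/+ non-swim libraries, and in both Des-/- groups Mfap5 is far higher in replicate 3 than in the other 2 libraries.

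Gene positions below are those of GRCm38 in the GENCODE M21 annotation. Among the members that define the lineage, Pdgfra (chr5:75152292-75198215, plus strand) encodes the receptor tyrosine kinase for platelet-derived growth factor that marks resident cardiac fibroblasts. Its level in non-swim libraries was 83.7, 101 and 89.1 CPM in Des+/+ replicates 1, 2 and 3 and 147, 124 and 223 CPM in Des-/- replicates. The Des-/- libraries were all higher, and replicate 3 was the highest. The log2 change was 0.85 (SE 0.23, edgeR adjusted p = 0.0153). This call was lost when any of 3 libraries was left out, with a log2 change of 0.79 and an adjusted p of 0.0524 without Des+/+ non-swim replicate 1, 0.83 and 0.0515 without Des+/+ non-swim replicate 3, and 0.58 and 0.0529 without Des-/- non-swim replicate 3 (edgeR). After swimming, Pdgfra stood at 69.9, 67.8 and 79.8 CPM in Des+/+ and 97.7, 67.6 and 112 CPM in Des-/- libraries. Replicate 2 of Des-/- swim lay below all Des+/+ swim libraries, and the groups overlapped. The log2 change of 0.35 (SE 0.23) did not pass the edgeR test (adjusted p = 0.313).

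Tcf21 (chr10:22817281-22820174, minus strand) encodes the bHLH transcription factor that sets aside the fibroblast lineage from the epicardium. In non-swim libraries it measured 15.9, 12.04 and 16.5 CPM in Des+/+ and 45.4, 26.8 and 35.2 CPM in Des-/- replicates. Even the lowest Des-/- library was above the highest Des+/+ library. The rise was 1.27 on the log2 scale (SE 0.23, edgeR adjusted p = 0.00216), and the call held in all 12 fits that left out 1 library. In swim libraries the values were 11.9, 13.6 and 14.2 CPM in Des+/+ and 21.1, 19.7 and 13.7 CPM in Des-/- replicates. Replicate 3 of Des-/- swim fell within the Des+/+ range, and the log2 change of 0.45 (SE 0.23) was not called (edgeR adjusted p = 0.204).

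Meox1 (chr11:101877510-101894374, minus strand) encodes a homeobox factor known from work on fibroblast activation in the stressed heart. It stood at 51.5, 31.2 and 48.6 CPM in Des+/+ non-swim and 96.6, 86.1 and 122 CPM in Des-/- non-swim libraries. All Des-/- libraries exceeded all Des+/+ libraries, with a log2 change of 1.21 (SE 0.30, edgeR adjusted p = 0.0107). In swim libraries it measured 61.7, 48.9 and 75.0 CPM in Des+/+ and 61.4, 91.9 and 143 CPM in Des-/- cells. The groups overlapped through Des-/- swim replicate 1, and the difference of 0.68 on the log2 scale (SE 0.30) was not called (edgeR adjusted p = 0.149). Without Des-/- swim replicate 3, which held the highest Meox1 level of all 12 libraries, that difference was 0.31.

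The secreted matrix members came next. Dcn (chr10:97479609-97518143, plus strand) encodes decorin, a small leucine-rich proteoglycan that binds collagen fibrils and TGF-beta. It measured 944, 928 and 1164 CPM in Des+/+ non-swim and 2103, 1689 and 1812 CPM in Des-/- non-swim libraries. The groups were separate, with a log2 change of 0.88 (SE 0.22, edgeR adjusted p = 0.0113). After swimming Dcn stood at 1023, 882 and 1185 CPM in Des+/+ and 1865, 1157 and 1664 CPM in Des-/- libraries. Replicate 2 of Des-/- swim overlapped with the Des+/+ libraries, and the log2 change of 0.60 (SE 0.22) missed the threshold in edgeR (adjusted p = 0.0930) and passed it in DESeq2 (0.61, adjusted p = 0.0232).

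Lum (chr10:97565128-97572703, plus strand) encodes lumican, a related proteoglycan that spaces collagen fibrils. Its level was 236, 199 and 276 CPM in Des+/+ non-swim and 458, 409 and 704 CPM in Des-/- non-swim libraries. All Des-/- values were higher, and replicate 3 was well above the other two. The log2 change was 1.14 (SE 0.31, edgeR adjusted p = 0.0169), and the call was lost without Des+/+ non-swim replicate 2 (1.03, adjusted p = 0.0696) or Des-/- non-swim replicate 3 (0.87, adjusted p = 0.0596). In swim libraries Lum stood at 179, 114 and 180.4 CPM in Des+/+ and 318, 165 and 369 CPM in Des-/- cells. Again it was Des-/- replicate 2 that overlapped with the Des+/+ libraries, and the log2 change of 0.85 (SE 0.31) was not called by edgeR (adjusted p = 0.0946) but was called by DESeq2 (0.85, adjusted p = 0.0463) and without Des-/- swim replicate 2 (1.12, edgeR adjusted p = 0.0468).

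Dpt (chr1:164796644-164824266, plus strand) encodes dermatopontin, a matrix protein that joins decorin to collagen and marks fibroblasts in many tissues. It measured 198, 143 and 219 CPM in Des+/+ non-swim and 552, 479.6 and 493 CPM in Des-/- non-swim libraries. The spread within Des-/- was small (508 ± 38.6 CPM, SD, n = 3) beside the distance from Des+/+ (187 ± 39.2 CPM, SD, n = 3). The log2 change was 1.45 (SE 0.23, edgeR adjusted p = 0.00140). After swimming the values were 224, 148 and 227 CPM in Des+/+ and 487, 403 and 299 CPM in Des-/- libraries. The groups stayed separate, with a log2 change of 0.99 (SE 0.23, edgeR adjusted p = 0.0251).

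Mfap5 (chr6:122505845-122529290, plus strand) encodes a glycoprotein of the microfibrils that scaffold elastic fibres. It showed the widest range of the members, with its highest library 25.0 times its lowest. In non-swim libraries it stood at 39.6, 17.7 and 38.6 CPM in Des+/+ and 188, 130.2 and 441 CPM in Des-/- replicates. All 3 Des-/- values lay above every Des+/+ value, and replicate 3 was far above the other two. The log2 change was 2.98 (SE 0.64, edgeR adjusted p = 0.00567), and 2.32 without Des-/- replicate 3, still called. In swim libraries Mfap5 measured 43.1, 36.9 and 37.1 CPM in Des+/+ and 98.3, 88.8 and 429.7 CPM in Des-/- cells. These groups were also separate, but replicate 3 set the size of the difference, which was 2.40 (SE 0.63, edgeR adjusted p = 0.0361) with it and 1.26 (adjusted p = 0.114) without it.

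Of the remaining members, Pi16 (chr17:29317680-29330593, plus strand) encodes peptidase inhibitor 16, a membrane-anchored protein typical of fibroblasts around vessels. Its non-swim levels were 128, 145 and 173 CPM in Des+/+ and 839, 488 and 716 CPM in Des-/- libraries. The groups were far apart, with a log2 change of 2.197 (SE 0.27, edgeR adjusted p = 8.20e-04), the lowest p of the 10 genes. In swim libraries it stood at 185, 199 and 128 CPM in Des+/+ and 364, 313 and 538 CPM in Des-/- cells. These groups did not overlap either, and the log2 change was 1.25 (SE 0.27, edgeR adjusted p = 0.0189).

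Fap (chr2:62500943-62574075, minus strand) encodes fibroblast activation protein, a surface prolyl peptidase raised on activated fibroblasts. It was the least abundant member, at 8.13, 11.2 and 11.2 CPM in Des+/+ non-swim and 19.8, 23.3 and 35.3 CPM in Des-/- non-swim libraries. The Des-/- libraries were all higher (log2 change 1.36, SE 0.25, edgeR adjusted p = 0.00256). After swimming it measured 8.86, 7.60 and 9.25 CPM in Des+/+ and 16.5, 14.9 and 22.5 CPM in Des-/- libraries. The groups were again separate, with a log2 change of 1.07 (SE 0.25, edgeR adjusted p = 0.0265).

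Gsn (chr2:35256380-35307892, plus strand) encodes gelsolin, which severs and caps actin filaments and is abundant in fibroblasts, with a form secreted into plasma. It was the member with the least clear genotype difference. In non-swim libraries it stood at 3060.3, 2940.0 and 4017 CPM in Des+/+ and 7628, 4411 and 3169.9 CPM in Des-/- replicates. Replicate 1 of Des-/- was the highest library and replicate 3 fell inside the Des+/+ range. The log2 change of 0.60 (SE 0.37) was not called (edgeR adjusted p = 0.228). Swim libraries gave 3126, 3095 and 3371 CPM in Des+/+ and 6432, 4721 and 2736 CPM in Des-/- cells, with the same order of the Des-/- replicates and a log2 change of 0.53 (SE 0.37, edgeR adjusted p = 0.344). With both Des-/- replicate 3 libraries left out, a fit added after the data were seen, Gsn was called without swimming (0.92, edgeR adjusted p = 0.0250) and not after swimming (0.81, adjusted p = 0.0660).

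**Figure D2:**
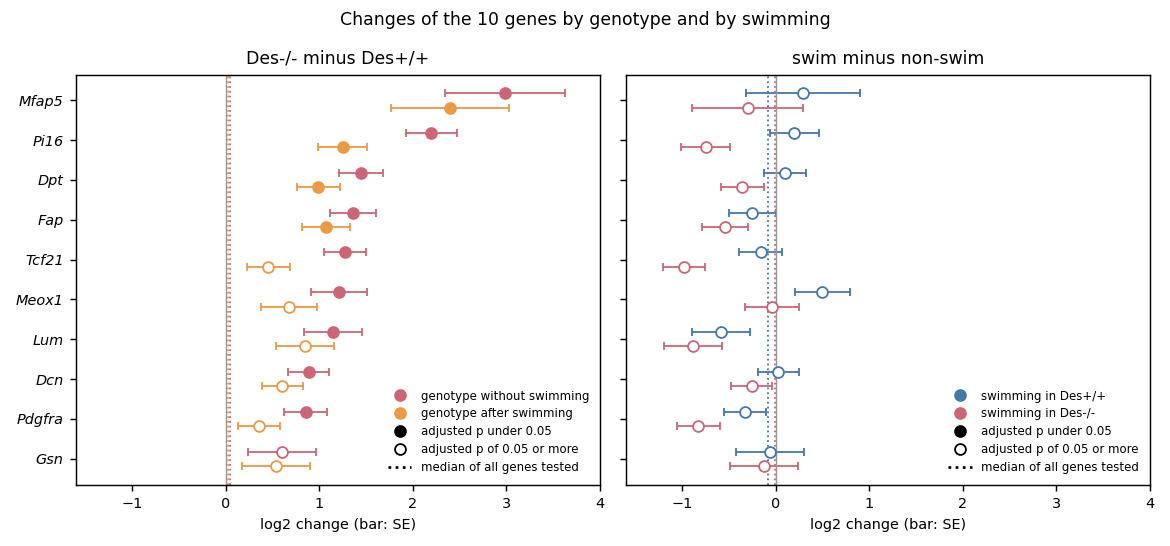
Log2 change of each gene (x axis) between genotypes at left and between swim states at right. Bars are the SE derived from the edgeR F statistic. Filled points passed an adjusted p of 0.05, open points did not, and dotted lines give the median of all genes tested. All genotype differences lie to the right of 0, from 0.35 for Pdgfra after swimming to 2.98 for Mfap5 without swimming, and no swimming difference is filled.

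After swimming, 4 members (Dpt, Fap, Pi16 and Mfap5) were called higher in Des-/- cells. The background was 5.01% of all genes called higher and 5.57% lower, 10.6% in all. The same 4 members had separate libraries, against 17.3% of all genes (18.6% in the lower direction). The median log2 change was 0.76 over the members and 0.02 over all genes, and all 10 members had positive values. The number called was unsteady. Leaving out 1 library gave between 0 and 4 calls. There was 1 call without Des+/+ swim replicate 1, 1 without Des+/+ swim replicate 2 and 0 without Des+/+ swim replicate 3. There were 2 without Des-/- swim replicate 1 and 1 without Des-/- swim replicate 3. DESeq2 called 6 members, but it also called more of all genes, 15.9% against 10.6% in edgeR.

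Averaged over both swim states, so that all 12 libraries entered, 9 members were called higher in Des-/- cells, where 19.3% of all genes were called higher and 20.6% lower, 39.9% in all. The log2 changes of these 9 ran from 0.60 (SE 0.16, edgeR adjusted p = 0.0121) for Pdgfra to 2.69 (SE 0.45, edgeR adjusted p = 0.00107) for Mfap5. Gsn reached 0.57 (SE 0.26, edgeR adjusted p = 0.0996). DESeq2 called Gsn (0.58, adjusted p = 0.0441) and so all 10 members, with 40.1% of all genes called. Gsn was also called by edgeR without Des-/- non-swim replicate 3 (0.70, adjusted p = 0.0387), without Des-/- swim replicate 3 (0.70, adjusted p = 0.0443) and without both (0.86, adjusted p = 0.00509). Each of the other 9 was called in all 12 fits that left out 1 library.

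The comparison of swim with non-swim libraries gave fewer calls among the members. In Des+/+ cells edgeR called 0 members, 0 passed at an unadjusted p under 0.05 and DESeq2 called 0. Of all genes, edgeR called 0.0912%, 20.5% passed at an unadjusted p under 0.05 and DESeq2 called 7.14%. The median log2 change was -0.02 over the members. Lum (log2 change -0.59, SE 0.31, edgeR adjusted p = 0.302) and Pdgfra (-0.33, SE 0.23, edgeR adjusted p = 0.427) had swim libraries that all lay below the non-swim libraries, which was so for 18.7% of all genes (12.5% had swim libraries all above). Meox1 had the largest positive value (0.50, SE 0.30, edgeR adjusted p = 0.358), with overlapping groups.

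In Des-/- cells edgeR again called 0 members, with 0.0228% of all genes called, but 5 members had an unadjusted p under 0.05, as had 16.7% of all genes, and DESeq2 called 2, with 2.45% of all genes called. All 10 log2 changes were negative, with a median of -0.45 against -0.01 over all genes. The 2 that DESeq2 called lower after swimming were Tcf21 (-0.96, adjusted p = 0.0191) and Pdgfra (-0.82, adjusted p = 0.0439). In edgeR these stood at -0.98 (SE 0.23, adjusted p = 0.176) and -0.83 (SE 0.23, adjusted p = 0.187). Along with Lum (-0.88, SE 0.31, edgeR adjusted p = 0.225), they were the members whose swim libraries all lay below the non-swim libraries, as did 9% of all genes (10.4% lay all above). Replicate numbers were read as pairing the Des-/- libraries, which the data did not establish. By these numbers 8 members were lower after swimming in all 3 pairs and 24.5% of all genes were. The 2 that were not were Gsn and Meox1. With the number as a block shared by all 12 libraries, edgeR still called 0 members, but this is no paired test within Des-/-. Meox1 (-0.04, SE 0.29), Gsn (-0.13, SE 0.36) and Mfap5 (-0.30, SE 0.59) turned positive in some fit that left out 1 library, and the other 7 members, Dcn (-0.26, SE 0.22) among them, did not.

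The genotype difference was smaller after swimming for all 10 members, but the test of that difference itself, the interaction, called 0 members in edgeR and 0 in DESeq2. At an unadjusted p under 0.05 there were 2, Pi16 (-0.95 on the log2 scale, SE 0.37, edgeR adjusted p = 0.250) and Tcf21 (-0.82, SE 0.32, edgeR adjusted p = 0.251). edgeR called 0% of all genes in this comparison and DESeq2 called 2.54%, with 2148 genes (16.3%) at an unadjusted p under 0.05. The Des-/- swim libraries were also the shallowest, and between 57.2% and 64.5% of their uniquely aligned reads fell in no gene, against 34.2% to 52.3% in Des-/- non-swim libraries. The part of this in the swimming comparison was not tested.

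Per kilobase of annotated exon, the order of the levels was alike in all groups at its ends. Gsn was first, at 1058 CPM per kb in Des+/+ non-swim and 1606 in Des-/- non-swim libraries, followed by Dcn (173 and 319.9), Dpt (108 and 295) and Lum (96.8 and 214). Fap was last, at 1.80 and 4.62 CPM per kb. In Des-/- libraries Dcn and Dpt overlapped in both swim states, and Dpt and Lum overlapped without swimming. In Des+/+ non-swim libraries Dpt and Lum overlapped, as did Pi16 and Meox1, Pdgfra and Mfap5, and Mfap5 and Tcf21. Mfap5 moved from rank 8 (8.90 CPM per kb) to rank 6 (70.5 CPM per kb) in Des-/- non-swim libraries, where it overlapped with Pi16 above and Meox1 below it. Pdgfra, at 9.09 and 16.4 CPM per kb, stood at ranks 7 and 8.

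The members did not all rise to the same degree, which was described by setting each against Pdgfra within the same library. This ratio does not depend on the scaling of libraries, and it is given without a test because it was chosen after the data were seen. Mfap5 had between 17.5 and 61.7 reads per 100 Pdgfra reads in Des+/+ libraries and between 101 and 382 in Des-/- libraries, swum or not. For Pi16 the ranges were 144 to 293 and 321 to 573, and for Fap 9.72 to 12.7 and 13.5 to 22.0. For these 3 genes the 6 Des-/- libraries lay above the 6 Des+/+ libraries. The other 6 overlapped between genotypes. The share of all genes whose ratio to Pdgfra would separate the genotypes in this way was not computed, so the count has no background beside it. Averaged over swim states, the log2 difference of this ratio (Des-/- minus Des+/+) was 1.87 for Mfap5, 1.14 for Pi16, 0.66 for Dpt, 0.62 for Fap, 0.39 for Lum, 0.35 for Meox1, 0.28 for Tcf21 and 0.17 for Dcn, while for Gsn the log2 difference was -0.08. The SD within groups was 0.69 for Mfap5, 0.35 for Pi16 and 0.19 for Fap, and 0.66 for Gsn.

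**Figure D3:**
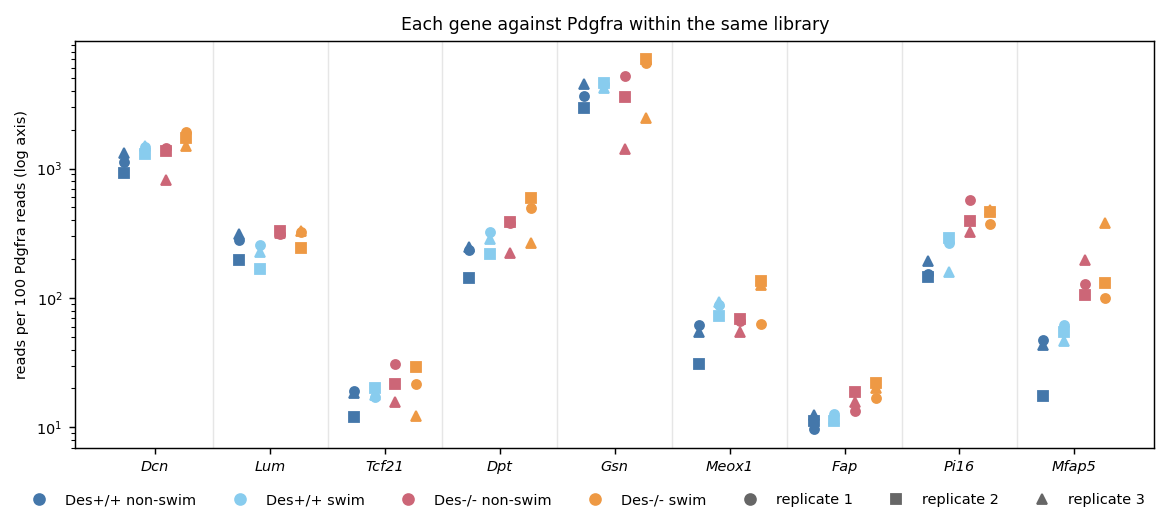
Reads of each gene per 100 reads of Pdgfra in the same library (y axis, log scale), by gene (x axis) and group. Each point is a library, with a marker shape for each replicate number. The Des-/- libraries lie above all Des+/+ libraries for Fap, Pi16 and Mfap5, and replicate 3 of both Des-/- groups is the lowest of its group for Dcn, Dpt, Tcf21 and Gsn.

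The libraries within a group also split the members. Over the 12 libraries all 45 pairs of members had a positive Pearson's r of log2 CPM, with a median of 0.75, but these points share the genotype difference. In deviations from the group means, 30 of the 45 pairs remained positive, with a median of 0.29. Gsn, Dpt and Tcf21 went together (r of 0.63 for Dpt and Gsn, 0.74 for Tcf21 and Gsn, 0.63 for Tcf21 and Dpt), and so did Pdgfra, Lum and Fap (0.82 for Pdgfra and Fap, 0.80 for Pdgfra and Lum) and Meox1 and Mfap5 (0.82). Gsn ran against Fap (-0.67), Mfap5 (-0.61) and Meox1 (-0.52). These are descriptions over 12 points that share library depth and scaling, and 4 of the points are the Des-/- replicate 1 and 3 libraries that lay at opposite ends for Gsn.

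**Figure D4:**
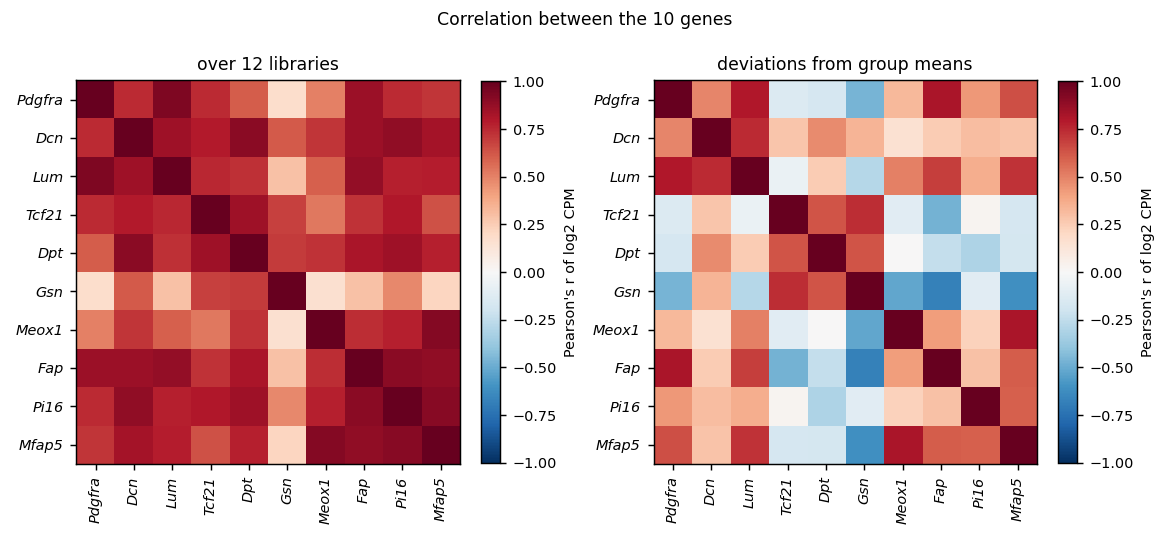
Pearson's r of log2 CPM (colour, from -1 to 1) between each pair of the 10 genes, over 12 libraries at left and in deviations from group means at right. At left every pair is positive, from 0.16 to 0.94. At right Gsn, Dpt and Tcf21 are positive with each other and Gsn is negative with Fap, Mfap5 and Meox1.

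Other genes typical of resident fibroblasts behaved much as the members did. Of 26 tested, 19 rose and 1 fell in Des-/- cells without swimming (median log2 change 1.23). After swimming 10 rose and 0 fell (median 0.92, or 0.52 without the Des-/- replicate 3 libraries). With all libraries 17 had an unadjusted p under 0.05 after swimming, and DESeq2 called 12 higher. Without swimming Col1a1, a chain of type I collagen, rose by 3.07 on the log2 scale (SE 0.81, edgeR adjusted p = 0.0145). Its level was 466, 434 and 405 CPM in Des+/+ non-swim and 1325, 1252 and 8404 CPM in Des-/- non-swim libraries, and without the Des-/- replicate 3 libraries the change was 1.64 (SE 0.20, edgeR adjusted p = 8.27e-04). Col3a1, of type III collagen, rose by 2.94 (SE 0.85, edgeR adjusted p = 0.0216), from 1182, 812 and 766 CPM to 2695, 2519.5 and 16013 CPM, and by 1.57 (SE 0.26, adjusted p = 0.00181) without those libraries. Without them 22 of the 26 rose and 0 fell. Htra1, a secreted serine protease, was the 1 that fell, with a log2 change of -0.37 (SE 0.12, edgeR adjusted p = 0.0378), and was not called without them (-0.26, adjusted p = 0.186). Scara5, a ferritin receptor, stood at 0.12 (SE 0.27, edgeR adjusted p = 0.763).

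Genes of activated fibroblasts and myofibroblasts had larger differences and more spread. Of 15, 10 rose and 0 fell without swimming, with a median log2 change of 2.98, and 4 rose and 0 fell after swimming. The median after swimming was 2.29, and 0.62 in the fit without the Des-/- replicate 3 libraries, where 5 were called higher. Tnc, encoding tenascin C, stood at 10.3, 3.74 and 6.05 CPM in Des+/+ non-swim and 36.1, 29.2 and 593 CPM in Des-/- non-swim libraries (log2 change 5.04, SE 1.33, edgeR adjusted p = 0.0148). Cthrc1, which marks collagen-producing fibroblasts, stood at 0.825, 0.584 and 1.17 CPM and at 1.81, 3.62 and 79.6 CPM (5 on the log2 scale, SE 1.62, edgeR adjusted p = 0.0350). In both, Des-/- replicate 3 stood far above the other 2 Des-/- libraries. Without the replicate 3 libraries Tnc was at 2.35 (SE 0.41, edgeR adjusted p = 0.00246) and Cthrc1 was no longer called (1.68, adjusted p = 0.0568). Of the 15 genes 9 then rose, with a median of 1.68. Acta2 and Tagln, contractile genes of myofibroblasts that smooth muscle also expresses, were not called, at -0.62 (SE 0.31, edgeR adjusted p = 0.149) and 0.43 (SE 0.41, edgeR adjusted p = 0.450).

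Genes of fibroblasts in the outer vessel wall, the setting in which Pi16 is best known, gave 4 rises and 0 falls among 8 without swimming and 0 calls after swimming (2 at an unadjusted p under 0.05, 0 by DESeq2). The highest changes were those of Has1, a hyaluronan synthase (6.78, SE 1.54, edgeR adjusted p = 0.00726), and Gfpt2, which feeds hexosamine synthesis (1.71, SE 0.35, edgeR adjusted p = 0.00416). Has1 stood at 190.5 CPM in replicate 3 of Des-/- non-swim, beside 5.74 and 4.76 CPM in the other two and 0.468 to 0.812 CPM in Des+/+ non-swim libraries, and without the replicate 3 libraries its change was 3.17 (SE 0.51, edgeR adjusted p = 0.00160). Of the 8 genes 5 then rose.

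The kin of the members were less uniform. Among 10 other small leucine-rich proteoglycans tested, relatives of decorin and lumican, 3 rose in both swim states. Fmod (fibromodulin) stood at 8.72, 6.43 and 11.6 CPM in Des+/+ non-swim and 38.8, 67.9 and 40.9 CPM in Des-/- non-swim libraries, a log2 change of 2.46 (SE 0.31, edgeR adjusted p = 8.36e-04). After swimming its change was 2.74 (SE 0.31, edgeR adjusted p = 0.00559). Prelp rose by 0.91 (SE 0.25, edgeR adjusted p = 0.0166) and Bgn (biglycan) by 1.84 (SE 0.41, edgeR adjusted p = 0.00704) without swimming. Aspn (0.85, SE 0.45), Ogn (0.68, SE 0.32), Omd (0.66, SE 0.37), Podn (0.79, SE 0.31) and Ecm2 (-0.13, SE 0.15) were not called, nor were the scarce Epyc and Chad. Without the Des-/- replicate 3 libraries Ogn (0.57, edgeR adjusted p = 0.0361) and Podn (0.94, adjusted p = 0.0446) were called too.

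Of the 6 PDGF ligands and receptors beside Pdgfra, only the receptor-like Pdgfrl was called, in both swim states (1.81, SE 0.35, edgeR adjusted p = 0.00348 without swimming, and 1.35, SE 0.36, adjusted p = 0.0380 after it). Pdgfrb, the receptor of pericytes and smooth muscle, stood at 348, 335 and 296 CPM in Des+/+ non-swim and 355, 339.9 and 501 CPM in Des-/- non-swim libraries (0.29, SE 0.28, edgeR adjusted p = 0.455). The ligands Pdgfa, Pdgfb, Pdgfc and Pdgfd had log2 changes of -0.19, 0.22, 0.97 and -0.36, none of them called.

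In the gelsolin family, Capg, a capping protein that macrophages express strongly, rose by 2.17 (SE 0.44, edgeR adjusted p = 0.00397) without swimming, and Svil, a membrane-linked member abundant in muscle, fell, with a log2 change of -0.82 (SE 0.28, edgeR adjusted p = 0.0455). With the Des-/- replicate 3 libraries left out Capg was at 1.48 (SE 0.25, edgeR adjusted p = 0.00228) and Svil was not called (-0.57, adjusted p = 0.162). Vil1, Avil, Scin and Flii were not called, and after swimming 0 of the 6 were called (0 at an unadjusted p under 0.05, 0 by DESeq2). The microfibril and elastic fibre genes that work with Mfap5 gave 6 rises among 11 without swimming, with a median log2 change of 1.63. They were Mfap4 (2.37, SE 0.47), Fbn1 (2.203, SE 0.60), Mfap2 (1.95, SE 0.54), Emilin1 (1.82, SE 0.39), Efemp2 (1.63, SE 0.42) and Ltbp4 (0.70, SE 0.23). Fbn2 (2.43, SE 0.97), Eln (1.20, SE 0.48) and Fbln5 (0.58, SE 0.21) missed the threshold, with edgeR adjusted p-values of 0.0753, 0.0780 and 0.0531. Without the Des-/- replicate 3 libraries 8 of the 11 rose, with Fbn2 and Eln added, and the median was 1.001. After swimming Mfap4 was the 1 called (2.58, SE 0.47, edgeR adjusted p = 0.0130), with 6 of the 11 at an unadjusted p under 0.05 and 4 called higher by DESeq2.

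Among prolyl peptidases related to Fap, 4 were tested and 1 fell without swimming, Prep (-0.47, SE 0.13, edgeR adjusted p = 0.0204), while Dpp4, the closest relative, stood at 0.71 (SE 0.45, edgeR adjusted p = 0.248). In the CAP family of Pi16, 2 of 4 tested rose without swimming, Glipr1 (3.85, SE 1.16, edgeR adjusted p = 0.0261) and Glipr2 (1.81, SE 0.42, edgeR adjusted p = 0.00797). Glipr1 stood at 1.49, 0.679 and 22.2 CPM in Des-/- non-swim libraries, and without the replicate 3 libraries it was not called (1.01, adjusted p = 0.230), while Glipr2 was (1.25, adjusted p = 0.00234). Of 10 bHLH and homeobox factors of heart mesenchyme, 5 rose and 1 fell (6 and 1 without the Des-/- replicate 3 libraries). Prrx2 (2.63, SE 0.55, edgeR adjusted p = 0.00503) and Twist2 (2.50, SE 0.42, edgeR adjusted p = 0.00173) had the highest values at levels of a few CPM, and Hand2, a factor of heart development, had the lowest (-1.52, SE 0.34, edgeR adjusted p = 0.00682). After swimming edgeR called 1 prolyl peptidase lower, Dpp8 (-0.49, SE 0.14, adjusted p = 0.0444), and 1 of the factors higher, Prrx2 (2.71, SE 0.62, adjusted p = 0.0238). Dpp8 was not called in the fit that left out the Des-/- replicate 3 libraries (-0.44, adjusted p = 0.109). It called 0 CAP genes then, with 1 at an unadjusted p under 0.05 and 0 by DESeq2.

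Markers of other heart cells moved beside the members, and their part in the results was not tested. All 12 cardiomyocyte markers fell in Des-/- cells without swimming (median log2 change -2.13), and their summed level was 71671 to 107247 CPM in Des+/+ non-swim and 6925 to 32329 CPM in Des-/- non-swim libraries. In the fit that left out the Des-/- replicate 3 libraries 11 of the 12 fell (median -1.71). After swimming edgeR called 1 of 12 lower, with 4 at an unadjusted p under 0.05 and 2 called lower by DESeq2. All 12 log2 changes were negative then (median -0.80), with sums of 34775 to 56933 and 17249 to 28862 CPM. Of 10 macrophage markers, 8 rose without swimming (median 2.73) and 0 after it (0 at an unadjusted p under 0.05, 0 by DESeq2). Without the Des-/- replicate 3 libraries 7 rose without swimming, with a median of 1.16. After swimming the median was 1.17 with all libraries and -0.03 without those of replicate 3, where 1 marker was called lower. The macrophage markers summed to 4273 CPM in Des-/- non-swim replicate 3 and 1379 CPM in Des-/- swim replicate 3. In the other 10 libraries their sum lay between 225 and 688 CPM.

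Not all marker lists of other heart cells showed such differences. Of 8 endothelial markers, edgeR called 0 without swimming (median log2 change -0.06, with 0 at an unadjusted p under 0.05 and 0 by DESeq2) and 0 after it (median -0.02, 2 and 0). Without the Des-/- replicate 3 libraries 2 were called higher without swimming, Tie1 (0.60, edgeR adjusted p = 0.0218) and Egfl7 (0.71, adjusted p = 0.0495), named after their values were seen. Their summed level was 5327 to 6428 CPM in Des+/+ non-swim and 4433 to 6881 CPM in Des-/- non-swim libraries. Of 8 pericyte and smooth muscle markers, edgeR called 0 in either state (0 and 0 at an unadjusted p under 0.05, 0 and 0 by DESeq2), with sums of 3254 to 4857 and 2774 to 3433 CPM. The members summed to 4528 to 6053 CPM in Des+/+ non-swim and 7751 to 12077 CPM in Des-/- non-swim libraries. After swimming they summed to 4612 to 5306 and 6328 to 9759 CPM, and neither pair of ranges overlapped. Gsn made up the largest part of these sums.

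**Figure D5:**
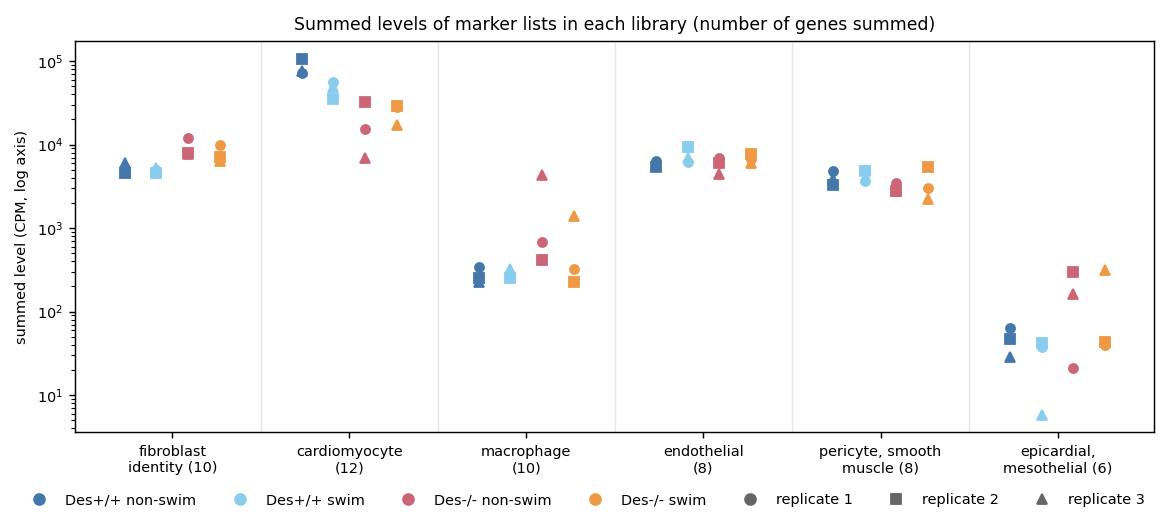
Summed level of each list in CPM (y axis, log scale) by list (x axis, with the number of genes summed), with a point for each library. The fibroblast identity genes lie higher and the cardiomyocyte markers lower in Des-/- than in Des+/+ libraries, endothelial markers overlap between all groups, and macrophage markers are highest in replicate 3 of both Des-/- groups.

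Among all genes that are not members, those whose log2 CPM followed the mean standardised profile of the members most closely over the 12 libraries were Itih2 (r = 0.98), Igfbp4 (0.98), Lsp1 (0.97), Duox1 (0.96), Kcp (0.96), Medag (0.96), Ptpn18 (0.96) and Mmp2 (0.95). Mmp2 encodes a gelatinase made by fibroblasts and Medag encodes a factor that promotes adipocyte differentiation. The most opposite were Bnip3 (-0.97), Fam160a1 (-0.96), Acsm5 (-0.95), Ubxn2a (-0.94), Got1 (-0.94), Adipor1 (-0.94), Ankrd40 (-0.93) and Popdc3 (-0.93). All 16 were also called for genotype without swimming, the 8 alike genes higher and the 8 opposite genes lower. The points share the genotype difference, so within groups the r of the alike genes was lower, from 0.68 for Itih2 to 0.90 for Ptpn18.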

How the data were processed

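RNA-seq of 12 libraries was analysed from the deposited raw counts of reads per gene. According to the study's methods and the submitters' processing notes, the authors aligned single-end reads to GRCm38 with HISAT2 2.2.1, sorted them with SAMtools 1.13, counted them with HTSeq in reverse-strand mode and compared groups with DESeq2 1.40.2. The deposited counts carry no normalisation. The labels name an unstranded kit and the methods a directional one. Antisense genes lie across Pdgfra, Tcf21, Dpt, Meox1 and Pi16, and same-strand annotated genes lie within Pdgfra (Mir7025) and Gsn (Gm43128), so their counts are less certain. Positions and exon lengths came from GENCODE M21 (21488 of 21493 genes matched). Between 34.0% and 64.5% of uniquely aligned reads fell in no gene and were left out of all totals. No pair of replicates held identical values.

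The tests were edgeR's quasi-likelihood tests (edgeR 4.0.16 in R 4.3.3) with TMM scaling, on the 13158 genes that passed filterByExpr. All 12 libraries entered 1 fit with a mean for each of the 4 groups, which left 8 residual degrees of freedom. From it came 6 contrasts, each adjusted over all genes by Benjamini-Hochberg, and calls needed an adjusted p under 0.05. The SE of an edgeR log2 change was derived as its absolute value divided by the square root of its F statistic. CPM are counts relative to the TMM-scaled library, log2 CPM used a prior count of 2, and a floor of 3 counts was used. The floor covers counting error only. Alternatives were DESeq2 1.42.0, other scalings, no filter, separate fits of the 6 libraries of a comparison, the replicate number as a block, and dropping each library in turn. The fits without both Des-/- replicate 3 libraries, the directions within pairs and the ratios to Pdgfra were chosen after the data were seen. The model fit was tested on simulated data.

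Members and gene lists were chosen with earlier results of these data known. All members are named. From the other lists at most 4 genes are named (the 2 highest and 2 lowest log2 changes for genotype without swimming), with the whole families of Dcn, Pdgfra, Gsn and Mfap5, and the 8 genes most and least like the mean member profile.

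Nothing says that same-numbered libraries share animals. Their deviations from group means correlated at 0.36, 0.32 and 0.60 for replicates 1, 2 and 3 between the Des-/- groups. All were over 0.1, so the numbers were taken to pair the libraries there. In no other comparison did all 3 pairs pass 0.1. These values do not establish the pairing. Deviations within a group cancel out, and replicate 3 stood apart in both Des-/- groups, which by itself raises all 3 correlations. Libraries of different numbers were not compared. With 3 pools a group, p-values measure the spread between pools.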

Additional observations from a re-analysis of the deposited data

How the results depend on the processing

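The 9 members called for genotype without swimming stayed 9 under the other scalings, without the filter, in DESeq2, with only the 6 libraries compared and with the replicate block, became 10 without both Des-/- replicate 3 libraries, and ran from 7 to 9 when 1 library was left out. Averaged over swim states, leaving out 1 library gave 9 to 10 and DESeq2 gave 10. After swimming the count ran from 0 to 4 without 1 library, and was 6 in DESeq2 and 5 with the replicate block, which added Lum. The replicate block changed no other member's call. The block was a replicate effect shared by all 4 groups, so it was no paired test within Des-/-. For swimming in Des-/-, where the numbers were taken to pair the libraries, it gave 0 members called, and DESeq2 gave 2. The cause of these differences was not tested.

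Signs turned only in the swimming and interaction comparisons, for members that were not called. For swimming in Des+/+, Gsn (-0.06) was 0.00661 with only the 6 libraries compared and 0.0141 without both Des-/- replicate 3 libraries, and ran from -0.146 to 0.0906 without 1 library. Dcn ran from -0.0884 to 0.137, Dpt from -0.0613 to 0.273 and Mfap5 from -0.0015 to 0.47. For swimming in Des-/-, Gsn ran from -0.44 to 0.29, Meox1 from -0.41 to 0.21 and Mfap5 from -1.44 to 0.37. For the interaction, Gsn ran from -0.38 to 0.35 and Mfap5 (-0.59) from -1.72 to 0.0668.

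Over all genes, DESeq2 called 2265 after swimming against 1392 in edgeR, 322 against 3 for swimming in Des-/- and 255 against 0 for the interaction. For swimming in Des+/+ edgeR called 12, DESeq2 790, relative log expression scaling 54, no filter 58, the 6 libraries alone 282, the replicate block 19 and the fit without both Des-/- replicate 3 libraries 743. For swimming in Des-/- no filter gave 7, upper-quartile scaling 2, the 6 libraries alone 0, the replicate block 2 and the fit without both replicate 3 libraries 72. Upper-quartile scaling moved the median genotype change of all genes to 0.14 without and 0.12 after swimming, from 0.04 and 0.02.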

Other observations

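Some further marker lists do not enter the comparisons above. Of 6 epicardial and mesothelial markers tested, edgeR called 0 for genotype without swimming (2 at an unadjusted p under 0.05, 2 by DESeq2) and 0 after swimming (3 and 1), but 5 averaged over swim states and 0 of them without both Des-/- replicate 3 libraries. Their median log2 change was 1.88 without and 2.11 after swimming, and 1.86 and 0.58 in the fit without both Des-/- replicate 3 libraries. Their summed level was 29 to 63 CPM in Des+/+ non-swim libraries and 21.4, 299.6 and 163 CPM in Des-/- non-swim replicates 1, 2 and 3, so Des-/- replicate 2, not replicate 3, was the highest there. Of 3 adipocyte markers tested, 0 were called without swimming (1 at an unadjusted p under 0.05, 0 by DESeq2), with sums of at most 21.6 CPM in any library. Of 4 Schwann cell markers, edgeR called 0 without swimming (0 and 0) and 0 after it (2 and 0), with sums between 19.1 and 56.0 CPM.

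The cardiomyocyte markers differed in the size of their fall. Without swimming, Pln, the inhibitor of the calcium pump of the sarcoplasmic reticulum, went from 5235, 6566 and 5530.2 CPM in Des+/+ to 715, 1479.5 and 369.9 CPM in Des-/- libraries, a log2 change of -2.76 (SE 0.48, edgeR adjusted p = 0.00191). Tnnc1, encoding troponin C, fell less, with a log2 change of -1.76 (SE 0.30, edgeR adjusted p = 0.00179).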
